A study of Mus musculus with 4 samples.

Results

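The loci described here are the mouse olfactory receptor genes in the gene annotation that accompanies an RNA-seq series on macrophages. They were chosen by name: every gene whose symbol is Olfr followed by a number, whatever its biotype, which gave 1257 of the 46078 annotated genes (2.73%). The series measured poly(A) RNA of bone marrow derived macrophages of C57/BL6 background, grown in 50 ng/mL M-CSF. The cells were held for 6 hours in a pressure chamber under static pressure or under cyclic hydrostatic pressure of about 15 mmHg amplitude. The series lists opening times of 0.6 s for the intake and 0.4 s for the exhaust. Its 4 groups hold 1 library each, namely Piezo1 fl/fl cells (WT) and Piezo1 fl/fl, LysM Cre+ cells (KO, Piezo1ΔLysM) under each kind of pressure. Cells of all 4 groups carry the floxed Piezo1 allele, and the KO groups add LysM Cre, a recombinase driven from a gene of myeloid cells; controls were littermates. The design asks how macrophages with and without this mechanically gated channel respond to cyclic pressure. No library value was analysed here, so no receptor gene is said to be expressed or silent in these cells, no cell type was checked, and there is no sequencing depth, no replicate error and no comparison between groups. All values below describe gene models on GRCm38.

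Olfactory receptors are G protein-coupled receptors that cross the cell membrane several times, and they form the largest gene family in the mouse genome. A mature olfactory neuron transcribes a single receptor gene from a single allele, and the receptor signals through the G protein subunit encoded by Gnal to adenylyl cyclase and a cyclic nucleotide-gated channel. Class I receptors are related to those of fish, whereas class II receptors make up most of the mammalian repertoire. The genes lie in tandem arrays, and their coding sequence typically sits in an exon of its own, downstream of small noncoding exons.

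Short coding stretches show what the family members share. The capitals below mark the codons for Asp-Arg-Tyr at the inner end of the third membrane-spanning segment, a motif known for coupling such receptors to G proteins. The genes shown are receptors known from other work, and each stretch of 30 bases was read 5′ to 3′ on the gene's own strand from GENCODE M21 transcripts, with GRCm38 coordinates. Olfr16 is the MOR23 receptor, which is also found in sperm, and its stretch lies at chr1:172957148-172957177 on the plus strand. Olfr78, known in the carotid body and in vessels, has its stretch at chr7:102742624-102742653 on the minus strand, and Olfr558, its relative, at chr7:102709618-102709647 on the plus strand. Olfr544, which responds to azelaic acid, has it at chr7:102484726-102484755 on the minus strand. Olfr1507 is the MOR28 receptor (chr14:52490573-52490602, minus strand), and Olfr56 has its stretch at chr11:49134548-49134577 on the plus strand.
Olfr16: atgggttatGATCGTTATgtggctatttgt
Olfr78: atggcctttGACCGGTACgtggctatctgc
Olfr558: atggcctttGACCGCTATgtggccatttgc
Olfr544: atggctctaGATCGCTATgtggctatctgc
Olfr1507: atggcctatGATCGCTATgtggccatttgt
Olfr56: atggcttatGATCGCTATgtggccattagc
Olfr545, the S50 receptor and a neighbour of Olfr544, has the same letters as Olfr544. The motif starts at codon 121 of Olfr16, 120 of Olfr78, 123 of Olfr558, 125 of Olfr544 and 124 of Olfr1507, but at codon 90 of Olfr56, whose annotated coding sequence is shorter.

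Across the family the first in-frame Asp-Arg-Tyr codons were taken wherever they lay in the coding sequence. A match far from the usual position need not be the motif of the third membrane-spanning segment. Of 976 genes whose longest deposited coding sequence began with ATG, lay in 1 exon and had the same coordinates in at least 1 M21 transcript of the gene, 769 (78.8%) held the 3 codons in frame and 207 did not. Among the 769, the aspartate codon had a median position of 121, with the 5th to 95th percentiles at 119 to 128 and extremes at 4 and 161. The 769 stretches of 30 bases had 504 different spellings. Read as 10 codons, the 504 spellings encoded 82 different peptides. The most frequent of those peptides was encoded in 293 genes (38.1%) through 144 spellings.

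Of the 1257 genes, 1104 (87.8%) were annotated as protein-coding and 153 (12.2%, exact 95% binomial interval 10.4 to 14.1, a yardstick for counting error only) as pseudogenes of some kind. The family made up 4.98% of the 22159 protein-coding genes of the annotation. Unprocessed pseudogenes, which are decayed copies that kept their genomic structure, accounted for 112 genes (8.91%). Processed pseudogenes, the class used for reinserted RNA copies, accounted for 19 (1.51%), pseudogenes with no further class for 13 (1.03%) and transcribed unprocessed pseudogenes for 7 (0.557%). There was 1 polymorphic and 1 transcribed processed pseudogene. The plus strand carried 610 genes and the minus strand 647.

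The genes lay on 19 chromosomes, with none on chromosome 18, Y or the mitochondrial chromosome and none on patches or unplaced sequences. Chromosome 2 carried 350 (27.8%) and chromosome 7 carried 261 (20.8%), so that these chromosomes together held nearly as many receptor genes as all others combined. Olfr genes were 15.6% of the protein-coding genes of chromosome 2, 11.8% of those of chromosome 7, 10.7% of those of chromosome 9 and 8.76% of those of chromosome 19. Chromosomes 9 and 11 followed in number with 136 and 103 genes, and chromosomes 10 and 19 had 66 each. The smallest sets were the 5 genes each on chromosomes 3 and 8, the 3 on chromosome 5 and the single one on chromosome 12.

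The share of pseudogenes differed between chromosomes. Chromosome 11 had 23 of 103 (22.3%), chromosome 17 had 12 of 61 (19.7%), chromosome 2 had 64 of 350 (18.3%) and chromosome 1 had 6 of 33 (18.2%). Chromosome 9 had 5 of 136 (3.68%) and chromosome 7 had 24 of 261 (9.20%). All 66 genes of chromosome 10, all 40 of chromosome 14 and all 29 of chromosome 6 were annotated as protein-coding. They include genes with -ps in the name, such as Olfr443-ps1 on chromosome 6 and Olfr721-ps1 on chromosome 14. On chromosomes 5 and 12 no member was annotated as protein-coding.

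**Figure D1:**
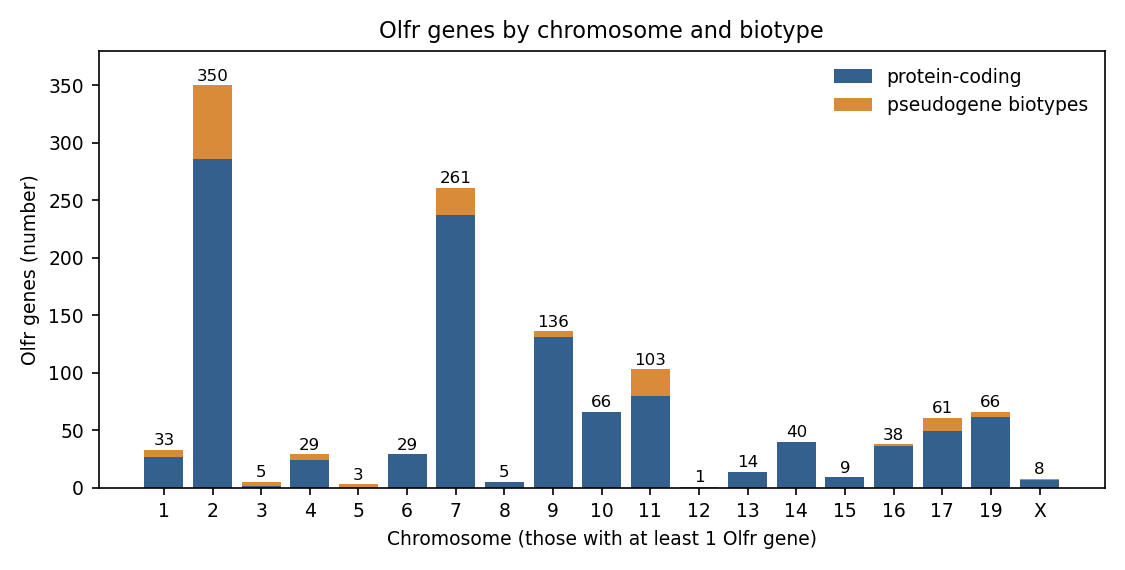
Number of Olfr genes on each chromosome (vertical axis, number of genes), split into protein-coding genes and pseudogene biotypes. Chromosome 2 with 350 and chromosome 7 with 261 stand above all others, and chromosome 10 with 66 genes has no pseudogene.

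With neighbours joined where the gap between them was under 1 Mb, the 1257 genes formed 41 clusters and 16 solitary genes. Clusters held 1241 genes (98.7%) and had a median size of 13. The 5 largest held 645 genes (51.3%), and the 21 clusters of at least 10 genes held 1142. At the other end, 4 clusters were pairs and 6 held 3 genes. The clusters covered 35.3 Mb in all. The median gap between neighbours was 17.1 kb, with quartiles at 10.6 and 27.5 kb, and 4 pairs of neighbours overlapped.

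The largest cluster, at chr2:85330897-90401592, ran from Olfr987 to Olfr1274-ps and held 269 genes (21.4% of the family) in 5.07 Mb, or 53.0 genes per Mb. Its largest gap was 140.0 kb, and 7 protein-coding genes without an Olfr name lay inside it. Among them were Gm13741, Gm13757 and Gm13762, which share the whole exon length of Olfr1134, Olfr1182 and Olfr1213 on the same strand. The cluster at chr7:102476773-105369355, from Olfr543 to Olfr692, held 145 genes in 2.89 Mb (50.1 per Mb). The cluster at chr9:37711348-40188094, from Olfr160 to Olfr986, held 98 genes in 2.48 Mb (39.6 per Mb). A further cluster on chromosome 7, at chr7:106677534-108894420 from Olfr693 to Olfr519, held 67 genes, and the cluster at chr19:11828077-13920044 from Olfr1417 to Olfr1505 held 66. The next in size were the 58 genes of chromosome 17 between Olfr90 and Olfr136 and the 57 of chromosome 10 between Olfr9 and Olfr827.

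**Figure D2:**
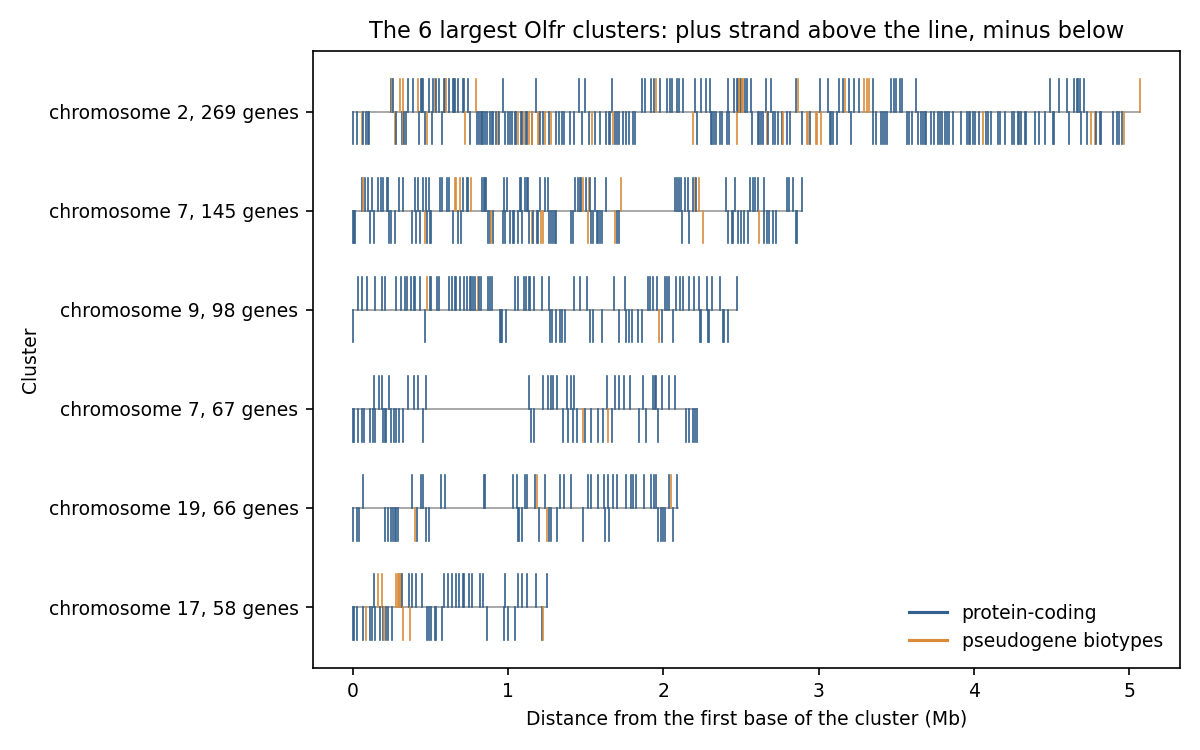
Maps of the 6 largest clusters, to scale, with distance from the first base of the cluster in Mb. Each tick is the midpoint of a gene, plus strand above the line and minus strand below, with pseudogene biotypes in orange. The chromosome 2 cluster of 269 genes includes the run of 38 minus-strand genes, seen as the wide gap above the line, whereas the 145 genes of the first chromosome 7 cluster are in shorter runs on both strands.

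Genes of other families lay inside the receptor arrays. The spans of the clusters held 228 protein-coding genes without an Olfr name, and 16 clusters held none. The 228 include models that lie over receptor genes, such as Gm13741 over Olfr1134. The 145-gene cluster of chromosome 7 enclosed the beta-globin genes, which encode chains of haemoglobin: Hbb-bt, which starts at 103812524, Hbb-bs, Hbb-bh2, Hbb-bh1 and Hbb-y, which ends at 103853240. Olfr67 lay 24.2 kb from the globin genes on the lower side, where 83 of the cluster's receptor genes lie, and Olfr66 lay 28.1 kb away on the higher side, where 62 lie. The same cluster held 12 Trim genes, whose family includes antiviral proteins (Trim5, Trim30a), and 5 Usp17l genes, which encode deubiquitinating enzymes. The 58-gene cluster of chromosome 17 held H2-M3 and H2-M2, nonclassical major histocompatibility genes. The cluster of 36 receptor genes on chromosome 14, from Olfr722 to Olfr1507, was the least dense of those over 30 genes at 13.9 per Mb, and it enclosed 54 other protein-coding genes and had the largest gap of any cluster, 963.6 kb.

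The 16 solitary genes had no Olfr gene within 1 Mb. Of these, 8 (50%) were pseudogenes, against 145 of 1241 (11.7%) in the clusters. The protein-coding ones were Olfr1402 and Olfr266 on chromosome 3, Olfr267 on chromosome 4, Olfr370 and Olfr371 on chromosome 8, Olfr466 on chromosome 13, Olfr49 on chromosome 14 and Olfr19 on chromosome 16, and each spanned between 927 and 1096 bases. The pseudogenes were Olfr289-ps1, Olfr1398-ps1 and Olfr375-ps1 on chromosome 3, Olfr1401-ps1, Olfr719-ps and Olfr718-ps1 on chromosome 5, Olfr1397-ps1 on chromosome 11 and Olfr241-ps1 on chromosome 12. They ran from 226 bases (Olfr1401-ps1) to 962 bases (Olfr1397-ps1), and 4 of them had at most 346 bases. Of the 19 processed pseudogenes, 5 were solitary and 14 lay in clusters.

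Among neighbours within a cluster, 823 of 1200 pairs (68.6%) shared a strand, 182 (15.2%) were convergent and 195 were divergent. For neighbouring protein-coding genes outside the family the share on the same strand was 51.1% of 20523 pairs. Other tandem receptor families also lay above that value: the vomeronasal type 1 receptors (Vmn1r) at 59.0% of 195 pairs, the vomeronasal type 2 receptors (Vmn2r) at 79.6% of 103, the bitter taste receptors (Tas2r) at 75.9% of 29 and the trace amine-associated receptors (Taar) at 80.0% of 15. The gap between Olfr neighbours was alike for both orientations, with medians of 16.8 kb on the same strand and 17.8 kb on opposite strands. In 889 pairs (74.1%) the numbers in the gene names differed by 1.

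Strand runs, meaning consecutive members on the same strand, numbered 418 in the clusters. Of these, 191 held a single gene and the median held 2, while 17 runs of at least 10 genes held 249 genes. The longest run comprised 38 minus-strand genes from Olfr1213 to Olfr1254 at chr2:88972954-89793170, an array of 820.2 kb with 1 pseudogene. The next comprised 22 plus-strand genes from Olfr892-ps1 to Olfr914 at chr9:38189727-38607417, with 2 pseudogenes in 417.7 kb. Runs of 17 plus-strand genes followed on chromosome 11, from Olfr1395 to Olfr1380 at chr11:49148259-49564858, and on chromosome 6, from Olfr453 to Olfr47 at chr6:42744039-43236636. The 22-gene cluster of chromosome 6 consisted of only 2 strand runs, so that 95.2% of its neighbours shared a strand. In 8 clusters all genes lay on the same strand, the largest of them with 8 genes.

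Strand sharing varied between clusters. It was 74.3% in the 269-gene cluster of chromosome 2, where 177 genes lay on the minus strand and 92 on the plus strand, and 76.3% in the 98-gene cluster of chromosome 9. In the chromosome 7 clusters of 145 and 67 genes it was 56.3% and 57.6%, with longest runs of 8 and 7 genes. The lowest value among clusters of at least 10 genes was 45.9%, in the 38-gene cluster of chromosome 9 from Olfr24 to Olfr18.

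**Figure D3:**
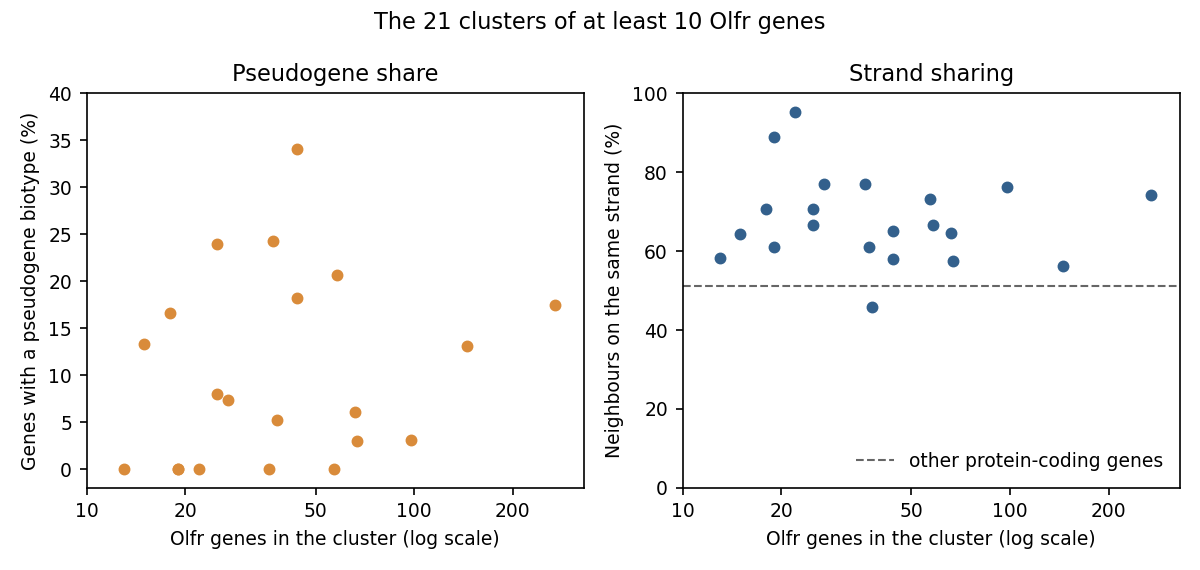
The 21 clusters of at least 10 Olfr genes, by size (horizontal axes, number of genes, log scale): left, genes with a pseudogene biotype (%), right, neighbouring pairs on the same strand (%), with a dashed line at the 51.1% of other protein-coding genes. Pseudogene shares run from 0 to 34.1%, and the 38-gene cluster of chromosome 9 is the one below the dashed line.

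Names from an older nomenclature, MOR, number receptor families by sequence similarity, and RefSeq lists them as synonyms. A MOR family was available for 1178 of the 1257 genes, in 224 families. Families 1 to 42 are the class I receptors, and they comprised 140 of these genes (11.9%). All 137 genes with a family in the 145-gene cluster of chromosome 7 were class I, and none was class II. The 3 class I genes elsewhere were Olfr503 and Olfr504, both in the 67-gene cluster of chromosome 7, and the solitary processed pseudogene Olfr1397-ps1 on chromosome 11. Of the class I genes 17 of 140 were pseudogenes, and of the class II genes 94 of 1038. Genes with no MOR family enter neither count, and they include the remaining pseudogenes of the 153 among all 1257 genes. The class counts are thus not pseudogene shares of whole classes. The median coding length was 951 bases in class I and 937.5 bases in class II.

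Most families were local. Of the 170 families with at least 2 genes, 139 (81.8%) lay in a single cluster. Families 202 and 204, with 31 genes each, lay wholly in the 66-gene cluster of chromosome 19 and in the 67-gene cluster of chromosome 7, and 35 of the 36 genes of family 171 lay in the 98-gene cluster of chromosome 9. Others were scattered: the largest family, 256, had 53 genes over 7 loci, of which 18 lay in the 58-gene cluster of chromosome 17, and family 103 had 17 genes over 7 loci. Clusters also differed in how mixed they were: the 42 genes with a family between Olfr1275 and Olfr1318 on chromosome 2 belonged to 2 families, while the 269-gene cluster held 47 families. Of 1068 neighbouring pairs with a family for both genes, 660 (61.8%) were of the same family. Within families 513 of those 660 pairs (77.7%) shared a strand, and between families 223 of 408 (54.7%) did.

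Pseudogenes were spread unevenly over the clusters. In 21 clusters there was none, including 6 of those with at least 10 genes, the largest being the 57-gene cluster of chromosome 10 and the 36-gene cluster of chromosome 14. The highest share among clusters of at least 10 genes was 15 of 44 (34.1%), in the chromosome 11 cluster from Olfr20 to Olfr412. It was followed by 9 of 37 (24.3%) on chromosome 2, 6 of 25 (24.0%) on chromosome 1, 12 of 58 (20.7%) on chromosome 17, 8 of 44 (18.2%) from Olfr1275 to Olfr1318 on chromosome 2 and 47 of 269 (17.5%) in the largest cluster. The 145-gene cluster had 19 (13.1%), whereas the clusters of 98 and 67 genes had 3 (3.06%) and 2 (2.99%). The pseudogenes had a median span of 934 bases, close to the coding length of an intact receptor, with extremes of 204 and 11016 bases. Names and biotypes did not always match: of 156 genes with -ps in the name 16 were annotated as protein-coding, and 13 pseudogenes lacked the suffix. Of those 16 protein-coding genes, 5 had no annotated stop codon and 4 were under 900 bases. Among other families the share of genes not annotated as protein-coding was 2.38% of 210 Vmn1r genes, 6.25% of 16 Taar genes and 0 of 122 Vmn2r, 35 Tas2r and 7 formyl peptide receptor (Fpr) genes.

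The coding sequence was contained in 1 exon in every coding transcript of 1087 of the 1104 protein-coding genes (98.5%). The same held for 12.1% of 21007 other protein-coding genes. Vmn1r genes were like the olfactory receptors in this respect with 202 of 205 (98.5%), as were Tas2r genes (35 of 35), Fpr genes (7 of 7) and Taar genes (14 of 15), while none of 122 Vmn2r genes, which encode receptors with a long extracellular part, was coded in a single exon. The genes known to act with the receptors were built differently. Of 19 genes of olfactory signalling and receptor gene choice, only Omp, which encodes the olfactory marker protein, was coded in 1 exon, and the median was 7 coding exons. Cngb1, a subunit of the olfactory channel, had 32, Adcy3, the adenylyl cyclase of these neurons, had 21, and Rtp1 and Rtp2, which bring receptors to the cell surface, had 2 each.

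Coding lengths were narrow. Without the stop codon the median was 939 bases (313 codons), with quartiles of 930 and 951 bases, and 1080 genes (97.8%) had between 900 and 1000 bases. Only 8 genes were shorter and 16 longer. The shortest were Olfr443-ps1 with 231 bases (77 codons), Olfr1187-ps1 with 300, Olfr779 with 390, Olfr831-ps1 with 444, Olfr936 with 801 and Olfr56 with 849. The longest were Olfr225 with 1257 bases (419 codons), Olfr94 with 1158 and Olfr735 with 1062. An annotated stop codon was lacking in 31 genes, Olfr779 among them, and an annotated start codon in 12. The coding length was a multiple of 3 in all but 1 gene.

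In 17 genes at least 1 coding transcript had its coding sequence in more than 1 exon. Most of these models added a short segment at an end: in 16 of the 17 the shortest segment was under 60 bases. Olfr872 and Olfr869 each had a first segment of 29 bases and a second of 940, with introns of 22628 and 7972 bases between them, and Olfr18 had 53 and 940 bases around an intron of 21047. Olfr1410 and Olfr576 instead carried short last segments of 8 and 9 bases. The models with the most coding exons were Olfr1187-ps1 and Olfr831-ps1 with 4 each and Olfr682-ps1 with 3. In all 3 of them some introns were shorter than 30 bases, for example 4, 19 and 4 bases in Olfr1187-ps1 and 2 and 4 bases in Olfr831-ps1.

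Near-identical copies and overlapping gene models bear on any count of reads over these genes. The libraries were read as pairs of 75 bases, so all windows of 75 bases were taken from the exons of the 1166 members found in GENCODE M21 and sought in the transcripts of every other gene. At least 1 window was shared by 723 genes (62.0%), 679 of them with another Olfr gene and 44 only with other genes. Matches on either strand counted, and the same share was not computed for genes outside the family. Over these M21 exons, which are mostly longer than the deposited ones, the median share among the sharers was 4.72% of a gene's windows. The share exceeded 10% in 191 genes (16.4%) and 50% in 15. In Olfr247 and Olfr431-ps1 every window was shared. Within the coding sequence alone, which could be compared for 976 genes, 536 (54.9%) shared a window, and the median share among those was 12.7%. Of the 976, 322 (33.0%) shared over 10% of their coding windows and 31 over 50%. All coding windows were shared in Olfr1344, Olfr1506, Olfr20, Olfr247 and Olfr290. A window also counted as shared where the model of another gene covers the same genomic bases. In the deposited annotation Olfr1344 shares 996 exon bases with Gm20715, and Olfr20 shares 961 with Spata22, both on the same strand. Such windows were not counted apart from those of copies elsewhere.

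Shared windows mostly joined near neighbours. Of 730 pairs of Olfr genes with a shared window, 551 (75.5%) lay in the same cluster, 425 of these (77.1%) on the same strand and 196 as direct neighbours, and the median distance within a cluster was 43.1 kb. Another 146 pairs lay on different chromosomes and 33 on the same chromosome in different clusters. Of 675 pairs with a MOR family for both genes, 505 were of the same family. The pair with the most shared windows was Olfr239 and Olfr55, 21.7 kb apart on chromosome 17, with 2172 windows, followed by Olfr814 and Olfr815 (948 windows, chromosome 10), Olfr247 and Olfr819 (847, chromosome 10), Olfr611 and Olfr612 (765, chromosome 7) and Olfr679 and Olfr681 (729, chromosome 7). All 5 pairs lay on the same strand.

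Of these pairs, those with coding sequences of equal length differed at few coding positions. Olfr814 and Olfr815, whose coding lengths differ, were not compared base by base. Of their coding windows, 257 of 856 in Olfr814 and 257 of 874 in Olfr815 were shared with another gene. Olfr239 and Olfr55 differed at 10 of 945 bases (98.9% identical), Olfr247 and Olfr819 at 7 of 960 (99.3%), Olfr679 and Olfr681 at 14 of 945 (98.5%) and Olfr611 and Olfr612 at 24 of 969 (97.5%). The stretch of coding bases 460 to 504 shows some of the differences of the last pair. It lies at chr7:103517879-103517923 in Olfr611 and at chr7:103538729-103538773 in Olfr612, both on the minus strand, and capitals mark the bases that differ.
Olfr611: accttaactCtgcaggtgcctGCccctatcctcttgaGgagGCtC
Olfr612: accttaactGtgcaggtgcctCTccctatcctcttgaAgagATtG
In this stretch 7 of the 24 differences fall within 45 bases. Whether the differences cluster along the whole coding sequence was not tested. In the stretch of coding bases 304 to 348 of the other pair shown, Olfr239 at chr17:33199365-33199409 and Olfr55 at chr17:33176719-33176763 on the plus strand, only 2 bases differ.
Olfr239: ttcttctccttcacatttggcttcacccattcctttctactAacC
Olfr55: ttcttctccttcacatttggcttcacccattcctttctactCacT

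**Figure D4:**
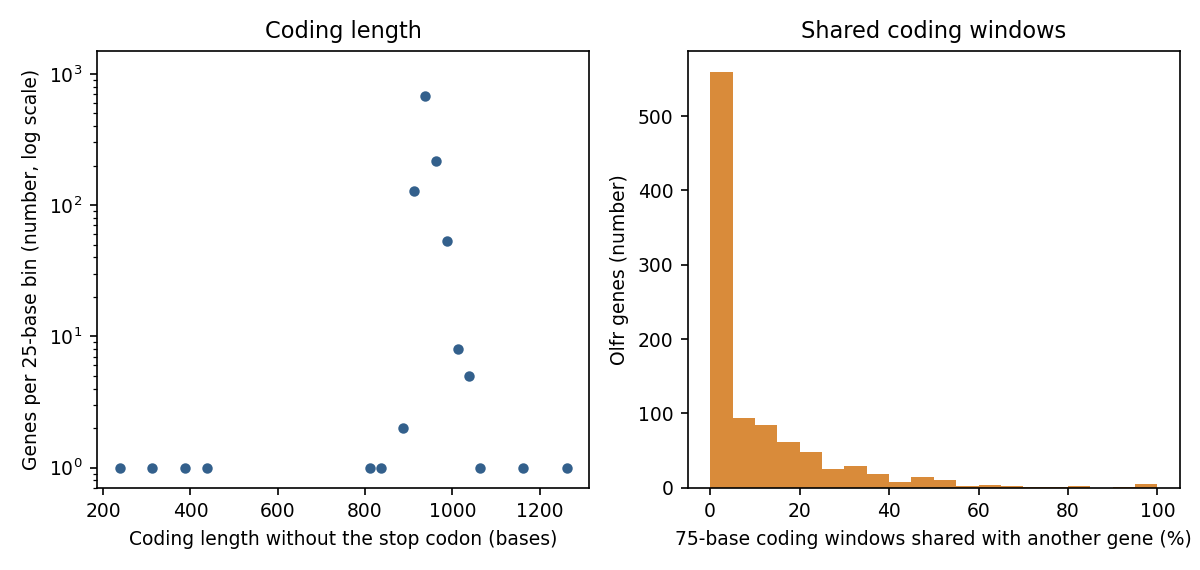
Left, number of protein-coding Olfr genes per 25-base bin of coding length (log scale; points, empty bins not drawn); right, percentage of 75-base coding windows that a gene shares with another gene (bins of 5 percentage points, 976 genes). Lengths crowd around the median of 939 bases with a few genes below 900, and most genes share under 10% of their coding windows while a small group shares over 50%.

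Noncoding 5′ exons, meaning exons wholly upstream of the first coding base of a coding transcript, were annotated in 116 of the 1104 protein-coding genes (10.5%). Of these, 74 had 1 such exon, 29 had 2, 9 had 3, 3 had 4 and 1 had 5, and 67 genes had one in every coding transcript. Other protein-coding genes had a noncoding 5′ exon in 42.7% of cases, Fpr genes in 3 of 7 (42.9%), Vmn1r genes in 6.34% and Vmn2r genes in 2.46%, and none of 15 Taar and 35 Tas2r genes had one. The 215 exons had a median length of 125 bases (15 to 2006), and the intron before the coding exon had a median length of 2489 bases, with quartiles of 1263 and 4454 bases. For 755 genes (68.4%) the model consisted of the coding sequence and nothing else, against 5.51% of other protein-coding genes. Other receptor families also lay far above that value. The share was 68.8% in Vmn1r, 73.8% in Vmn2r, 93.3% in Taar, 62.9% in Tas2r and 57.1% in Fpr genes. The median exon length of a protein-coding Olfr gene, summed over all its exons, was 948 bases, only slightly above the median coding length.

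The genes with the most noncoding 5′ exons were Olfr56 with 5, Olfr1229, Olfr138 and Olfr701 with 4 each and Olfr112, first by name of the 9 genes with 3. The longest introns before the coding exon were those of Olfr27 with 15865 bases, Olfr138 with 11582, Olfr140 with 10766, Olfr287 with 10684 and Olfr988 with 8929. Annotated 5′ exons were unequal between clusters. None of the 57 genes of the chromosome 10 cluster and none of the 36 protein-coding genes of the chromosome 2 cluster from Olfr1275 to Olfr1318 had one. In the chromosome 11 cluster from Olfr20 to Olfr412 they were present in 11 of 29 (37.9%), and in the 58-gene cluster of chromosome 17 in 11 of 46 (23.9%). In the 2 largest clusters the shares were 21 of 222 (9.46%) and 6 of 126 (4.76%).

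GENCODE M21, which is also on GRCm38, gave the same receptors far longer models. Of the 1257 genes, 1166 were found there by gene ID, and 1030 were protein-coding in the deposited annotation, had a coding transcript in both and could be compared. A noncoding 5′ exon was present in 114 (11.1%) of them in the deposited annotation and in 916 (88.9%) in M21. None lost its 5′ exon, 802 gained one, and 114 had none in either. A gene counted if any of its coding transcripts had such an exon, and Olfr genes with a single transcript were fewer in M21. The share with one in every coding transcript was not compared between the annotations. The start of the gene lay further upstream in M21 for 917 genes, at the same base for 111 and downstream for 2, and the median upstream shift was 2687 bases (quartiles 1088 and 4393). Coding sequences were nearly untouched, with the same length in 976 genes (94.8%). The median exon length of a gene rose from 951 to 2983 bases, a median ratio of 2.92 with quartiles of 1.92 and 4.10. The largest ratio was 16.6, in Olfr1307, from 939 to 15582 bases. Protein-coding genes outside the family changed little between the annotations: 43.4% of 20395 had a 5′ exon in the deposited annotation and 46.9% in M21, and the median length ratio was 1.

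**Figure D5:**
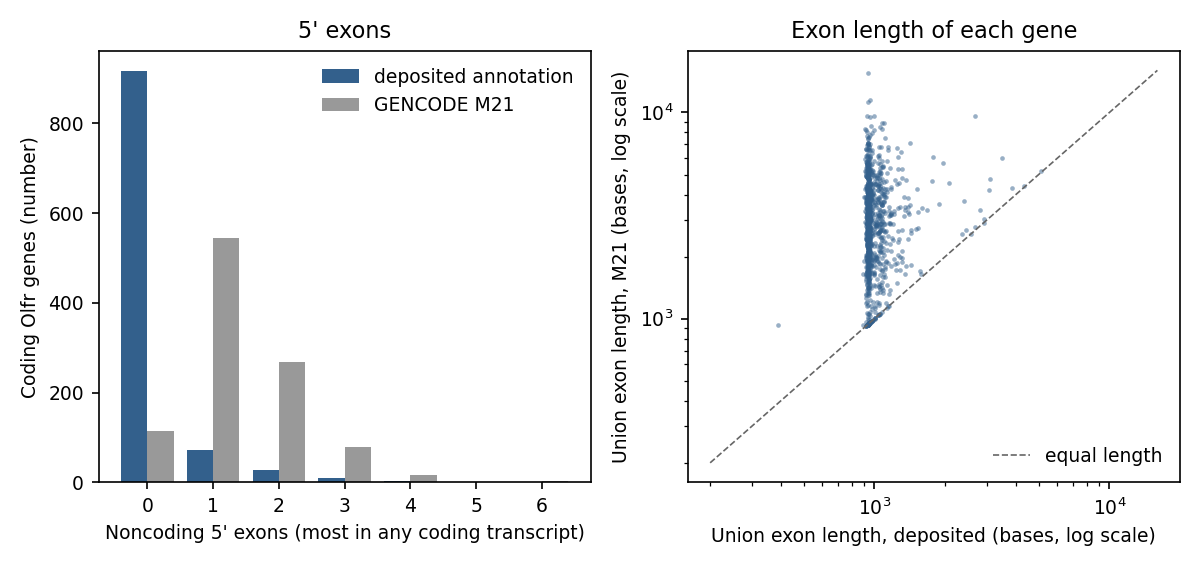
Left, number of coding Olfr genes by their number of noncoding 5′ exons in the deposited annotation and in GENCODE M21; right, union exon length of each gene in bases, deposited on the horizontal and M21 on the vertical axis, both log scales, with the dashed line at equal length. Genes with no 5′ exon fall from 916 to 114, and nearly all points lie on or above the line, stacked near the deposited median of 951 bases.

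Biotypes also differed between the annotations. M21 held 1407 Olfr genes, of which 272 (19.3%) were not protein-coding: 200 unprocessed, 56 polymorphic and 16 transcribed unprocessed pseudogenes, and no processed one. Of the 237 M21 genes with no counterpart by gene ID, 152 were not protein-coding. Among genes in both, 12 changed from protein-coding to a pseudogene biotype and 21 from a pseudogene biotype to protein-coding. Of the deposited processed pseudogenes, 10 were called unprocessed in M21. The 91 members without a matching ID included 25 pseudogenes, and for 88 of the 91 a gene of the same name occurred in M21.

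Receptors known from other work were described by a list of 17 symbols, of which 16 were found and all 16 were protein-coding in a single coding exon. A noncoding 5′ exon was annotated in 5 of them in the deposited file and in all 16 in M21. Olfr78 (chr7:102740721-102759471, minus strand) had 3 such exons, an intron of 2965 bases before the coding exon and a total exon length of 3496 bases. Olfr558, at chr7:102702331-102712054 on the plus strand, had 1 exon, an intron of 6809 bases and 2915 bases of exon. Olfr544 (chr7:102484114-102488307, minus strand) had 1 exon, an intron of 3013 bases and 1002 coding bases, whereas its neighbour Olfr545 was reduced to 951 bases with no 5′ exon. These 4 are class I receptors of the 145-gene cluster.

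The class II receptors of the list showed the same contrast. Olfr2, the I7 receptor, which responds to octanal (chr7:107000875-107002605, minus strand), had 1 noncoding 5′ exon, an intron of 481 bases and 1250 bases of exon, against 3 such exons and 6734 bases in M21. Olfr17, the P2 receptor, had 948 bases of exon and no 5′ exon, against 3666 bases in M21, and Olfr160, the M72 receptor, had 930 against 3492. Olfr1507, Olfr1508 and Olfr1509 on chromosome 14, of MOR family 244, had 1112, 933 and 1010 bases against 2877, 5791 and 2577. Olfr73, a receptor for eugenol, had 942 bases against 3048, and Olfr1393, known in the kidney, had 936 against 3010. Olfr16 had 1436 bases with no 5′ exon and 2690 bases with 2 such exons in M21.

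Olfr56 was the longest locus of the family. Its 3 transcripts spanned chr11:48978889-49135387 on the plus strand, 156499 bases, while the next longest spans were 23752 bases (Olfr872) and 22203 bases (Olfr18). The coding sequence of 849 bases lay in the last part, at 49134290 to 49135138. The noncoding exons upstream reached across Ifi47, which encodes an interferon-inducible GTPase and lies at chr11:49076587-49096974 on the same strand. Each of the 3 Olfr56 transcripts had 1 exon that overlapped an Ifi47 exon, 111 bases in all or 5.36% of the exon length of Olfr56. The longest 5′ intron was 108043 bases in 2 of the transcripts and 36199 bases in the other. Reads from those 111 bases cannot be assigned to Olfr56 or Ifi47 by strand, since both lie on the plus strand.

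Exons overlapped those of another gene in 25 of the 1257 genes (1.99%), and among protein-coding members in 22 of 1104 (1.99%), against 5399 of all protein-coding genes (24.4%). These counts rest on the deposited models, whose median exon length was 948 bases for protein-coding Olfr genes and 2905 for all protein-coding genes. Overlap in the longer M21 models was not counted. The partner was another Olfr gene for 2 of the 25 genes, Olfr831-ps1 and Olfr832, which share 51 bases, and a gene of another name for 23. In 19 cases the partner lay on the same strand and in 6 on the opposite strand. The largest overlaps took in most of the receptor: 996 bases of Olfr1344 (93.9% of its exon length) with Gm20715, 963 bases of Olfr1402 (100%) with RP23-290C4.1 on the opposite strand, 961 bases of Olfr20 (88.8%) with Spata22, and 960 bases each of Olfr113 and Olfr115 with annotated pseudogenes. Spata22 is known for its part in meiosis. Of the listed receptors, Olfr73 shared 366 bases (38.9%) with the processed transcript Gm13747.

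Motifs were sought in the RefSeq promoter table of GRCm38.p6, which gives 250 bases before and 50 bases after each start and matched 932 members with 936 promoters. EBF factors, which are known regulators in olfactory neurons, bind a palindromic consensus site with the arms TCCC and GGGA around a spacer NN, and homeodomain factors such as LHX2 and EMX2 bind a core of TAATTA; each was sought on both strands, and the letters of these motifs do not allow them to overlap. The EBF consensus site was present in 5 Olfr promoters (0.534%) and in 297 of all 32851 promoters (0.904%). TAATTA was present in 175 Olfr promoters (18.7%) and in 1738 of all promoters (5.29%). The median GC content was 35.0% in Olfr promoters and 52.7% in all promoters. Among promoters of 29 to 44.3% GC, TAATTA occurred in 140 of 758 Olfr promoters (18.5%) and in 782 of 5973 promoters of other genes (13.1%), whose median GC content in that range, 40.7%, was still higher than the 35.0% of the Olfr promoters. For 667 of the 936 the start used was the first coding base. The window is then the sequence before the coding exon and not that before a 5′ exon. Another 167 started elsewhere within 500 bases of the first coding base or downstream of it, and only 96 over 500 bases before it. The EBF consensus site was present in 3 of the 667, 2 of the 167 and 0 of the 96. TAATTA was present in 127, 27 and 20 of them. With so few EBF matches, the 0 among 96 does not show a lower share. A match of these letters is a description and not a site.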

How the data were processed

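The deposited file is a GTF gene annotation of GRCm38, and no library value was analysed here. Its coordinates (unit: other, 1-based start and end) were used as the authors deposited them. The submitters' processing notes list, with no role or order, the tools Cufflinks, TopHat2, Bowtie2, FastQC and CASAVA 1.8 and the builds GRCm38 and mm10. Its release was not given in the sources used here. Python 3.11.15 with numpy 2.4.6, scipy 1.17.1 and matplotlib 3.10.9 grouped genes by name, chromosome, biotype and strand, joined neighbours with gaps under 1 Mb, and counted exons and overlaps. The functions were tested on simulated data. GENCODE M21 (same build) gave transcripts, matched by gene ID, in place of a genome sequence, and RefSeq gave promoters and MOR names. No test was run. Some coding stretches are not reported here. A pseudogene means any biotype other than protein-coding.

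The members and lists were chosen with earlier results of these data known. The genes named are a list of receptors known from other work, the ends of the largest clusters and strand runs, solitary genes (the rule took 10; all 16 are named), extremes of coding length, coding exons, 5′ exons, introns and overlaps, and the pairs with most shared windows. Genes inside clusters, class I genes outside their cluster, the smaller overlaps, further examples of split coding sequences and genes with all windows shared were chosen after their values were seen, as were the MOR families and the GC range. Alternatives changed the gap, the transcripts, the annotation, the overlap and the window.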

Additional observations from a re-analysis of the deposited data

How the results depend on the processing

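Of 28 alternatives to 9 results, 18 left the value within its yardstick and 10 moved it. The yardstick was the exact 95% binomial interval for shares, which covers counting error only, the order-statistic interval for the median and 1.5 times for counts. The number of clusters was 48, 45 and 37 with gaps of 0.2, 0.5 and 2 Mb and 42 in GENCODE M21, and the largest cluster kept its 269 genes at each gap. With M21 in place of the deposited annotation the pseudogene share moved from 12.2% to 19.3%, the share coded in 1 exon from 98.5% to 95.3%, and the share with a noncoding 5′ exon from 10.5% to 88.4%, or to 88.9% over genes in both. Requiring the 5′ exon in every coding transcript gave 6.07% in the deposited annotation. Counting opposite-strand partners alone gave 0.477% of genes with an overlap in place of 1.99%, since it drops the same-strand ones. Shared windows moved from 62.0% of genes to 79.0% with 50 bases, 27.4% with 150 bases, 16.4% when over 10% of the windows had to be shared and 54.9% over coding sequence alone. What differs in the making of both annotations was not tested. The comparison over genes in both annotations and that over coding sequence alone were chosen after seeing the data. No paired analysis was possible because the values come from an annotation, each group has 1 library and no result comes from a test. For the same reason no library could be left out.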
